A study of Mus musculus with 6 samples.

Results

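Immediate early genes are genes whose transcripts appear within minutes of a stimulus without new protein synthesis. The 10 examined here were Fos, Fosb, Jun, Junb, Egr1, Ier2, Atf3, Dusp1, Btg2 and Nr4a1. Every probe set annotated with exactly 1 gene symbol and that symbol in this list was taken, with no value used for the choice. That gave 12 of 45037 non-control probe sets, with a pair each for Jun and Btg2 and 1 for each of the other 8 genes.

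The arrays came from E13.5 mouse embryos (E for embryonic day) that were either Olig2-/-, without the bHLH transcription factor Olig2, or Olig2+/+. Olig2 is the only allele the labels name. The samples are called ventral telencephalon in their labels and ventral forebrain in the design text. RNA of 3 brains was pooled per array, so the spread between arrays is a spread between pools. Of the 5 replicates stated per genotype, 3 were analysed here in each: those numbered 1, 4 and 5 in the wild type and 2, 4 and 5 in the knockout. The sources used here do not state how the allele was made, the strain, or how the tissue was handled between dissection and lysis. The values are log2 expression values per probe set, made by the authors with GCRMA.

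In background terms, kinases of the MAPK pathways and calcium signals act on serum response factor and on CREB, which sit on these promoters before any stimulus. The products are mostly transcription factors: Fos and Fosb pair with Jun and Junb to form AP-1, Egr1 is a zinc finger factor, Nr4a1 an orphan nuclear receptor and Atf3 a stress-induced bZIP factor. Dusp1 is a phosphatase that switches MAP kinases off, Btg2 is an antiproliferative gene known in the developing brain for marking progenitors that are about to produce neurons, and Ier2 is a small nuclear protein. Because tissue dissection itself can induce them, such genes are often read as a sign of handling.

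The promoters of 8 of the 10 genes were found by symbol in a RefSeq table of build GRCm38.p6, and those of Egr1 and Ier2 were not. The 250 bases before each annotated start were searched on both strands for the cyclic AMP response element TGACGTCA, to which CREB binds, and for its half-site TGACG. A full element holds the half-site on both strands. The half-site occurred in 7 of 8 member promoters and in 17.8% of the 32851 promoters in the table. The full element occurred in the promoters of Btg2 and Dusp1, and in 1.55% of all promoters. The CArG box of serum response factor (1.47% of all) and the AP-1 site TGANTCA (6.75% of all) had no match in these windows. Stretches of 4 promoters are shown because they contrast Btg2 and Dusp1, which were read well above the array median and hold the full element, with Jun, also bright, which has no half-site, and Fos, which was read below the median and has 2. Capitals mark half-sites and full elements, 5′ to 3′ on the gene's strand.
Btg2: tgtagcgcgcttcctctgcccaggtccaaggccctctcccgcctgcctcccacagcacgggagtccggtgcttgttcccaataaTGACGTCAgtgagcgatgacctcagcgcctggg
Dusp1: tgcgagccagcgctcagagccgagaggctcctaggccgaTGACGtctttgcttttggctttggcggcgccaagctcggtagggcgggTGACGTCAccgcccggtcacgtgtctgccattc
Jun: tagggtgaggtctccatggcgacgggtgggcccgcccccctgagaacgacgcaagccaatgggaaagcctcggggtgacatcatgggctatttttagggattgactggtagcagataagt
Fos: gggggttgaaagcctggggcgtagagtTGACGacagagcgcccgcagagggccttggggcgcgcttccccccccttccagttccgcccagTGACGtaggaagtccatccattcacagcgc
The Btg2 stretch is chr1:134079289-134079405 (minus strand) and its element begins 166 bases before the start. The Dusp1 stretch is chr17:26508583-26508702 (minus strand) with the element at 143 bases. The Jun stretch is chr4:95052223-95052342 (minus strand) and the Fos stretch chr12:85473734-85473853 (plus strand), where the half-sites begin 129 and 66 bases before the start. These matches describe sequence letters, not binding, and a link between matches and array values was not tested.

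The first question was which of the genes could be read at all in this tissue. A group of 5 genes, each with 1 probe set, lay below the array median on all 6 arrays, and the other 5 lay above it on all 6. Array medians were between 3.14 and 3.19, and the lowest value on each array was 2.27. Fosb read 2.27 on every array, the lowest value there. Junb read from 2.27 to 2.28, with 27.1% to 29.2% of probe sets lower on the same array. Atf3 read from 2.30 to 2.36, Fos from 2.64 to 2.70 and Egr1 2.92 on every array, below the median throughout. The highest minus the lowest array was 0.004 for Junb, 0.003 for Egr1, 0.054 for Fos and 0.061 for Atf3 (log2). GCRMA compresses differences near its floor, so these 5 values carry no genotype comparison and set no known limit on the transcript level. No array stood out by a high Fos, Fosb, Junb, Egr1 or Atf3 value.

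The readable genes were Dusp1, Jun, Btg2, Ier2 and Nr4a1, with 7 probe sets, and all 7 were above the median on 6 of 6 arrays, so none passed the filter through one genotype alone. Within an array, Dusp1 was brighter than 90.6% to 92.8% of probe sets, the brighter Jun probe set than 87.4% to 90.7%, and Nr4a1 than 55.7% to 58.2%. Brightness of different probe sets is not a measure of relative transcript number.

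**Figure D1:**
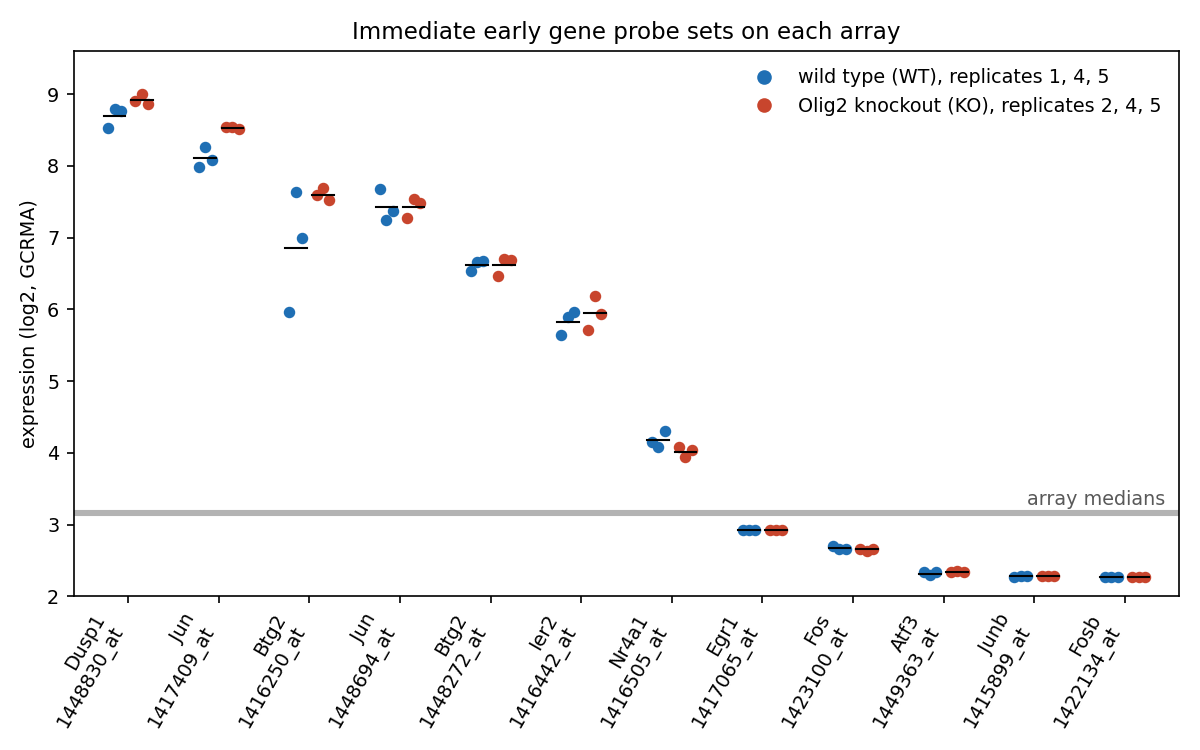
Log2 expression of the 12 probe sets on each of 6 arrays, with a black line at the mean of each genotype and a grey band at the array medians (3.14 to 3.19). The 7 probe sets at left lie above the band on every array and the 5 at right below it. Wild-type replicate 1 (the first blue point of each trio) reads 5.97 for Btg2 1416250_at, against 6.99 and 7.64 on the other wild-type arrays.

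The second question was whether Olig2 loss changed any of them. None of the 7 probe sets passed. In limma at an adjusted p of 0.05, 0 of 7 member probe sets and 0 of 22565 kept probe sets were called (0%), and at unadjusted p below 0.05 the counts were 1 of 7 and 2121 of 22565 (9.4%; the knockout was higher in 4.98% of all kept probe sets). The groups did not overlap for 2 of the 7, Jun at its brighter probe set and Dusp1, both higher in the knockout. Over all kept probe sets 16.2% did not overlap, 8.96% with the knockout higher. With 7 probe sets from 5 genes, a count of 2 is too small to set apart from that background. Taking the brightest kept probe set of each gene, 4 genes were higher and Nr4a1 was lower in the knockout, with a median log2 difference of 0.22. Over 10630 genes the median was 0.00, with 5238 higher and 5371 lower. Fewer arrays separate more easily: without knockout replicate 2, 4 of the 7 did not overlap, against 31.2% of all kept probe sets, and without wild-type replicate 4 again 4, against 34.7%. With both left out, a choice made with earlier results known, 5 of 7 did not overlap, against 48.9% of all. There 2 had unadjusted p below 0.05, as did 3276 of 22565 (14.5%).

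Jun, the AP-1 partner of the Fos proteins, had the lowest p of the members. Its probe set 1417409_at read 7.98, 8.26 and 8.09 on wild-type replicates 1, 4 and 5, and 8.55, 8.54 and 8.51 on knockout replicates 2, 4 and 5. All knockout arrays were above all wild-type arrays, and the knockout arrays lay within 0.04 of each other. Wild-type arrays averaged 8.11 ± 0.14 and knockout arrays 8.53 ± 0.02 (SD, n = 3 each), a log2 difference of 0.42 (SE 0.09, 95% interval 0.20 to 0.64, 1.34-fold). Jun did not pass: limma's unadjusted p was 0.0033 and its adjusted p was 0.511. The difference was between 0.36 and 0.49 when each array was left out in turn.

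A second Jun probe set gave another picture. Probe set 1448694_at read 7.68, 7.25 and 7.37 on wild-type replicates 1, 4 and 5 and 7.27, 7.54 and 7.48 on knockout replicates 2, 4 and 5. Here wild-type replicate 1 was the highest array, whereas it was the lowest for 1417409_at. The groups overlapped, with a log2 difference of 0.00 (95% interval -0.34 to 0.34). The mean of both Jun probe sets differed by 0.21. The sources used here do not place either probe set in the transcript, and which one follows Jun transcript more closely was not tested.

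Dusp1, which ends MAP kinase signals, also separated the genotypes by a small margin. It read 8.53, 8.79 and 8.77 on wild-type replicates 1, 4 and 5 and 8.90, 9.00 and 8.87 on knockout replicates 2, 4 and 5. The lowest knockout array was 8.87 and the highest wild-type array 8.79. The difference was 0.22 (8.70 ± 0.14 against 8.92 ± 0.07, SD, n = 3 each, SE 0.10, 95% interval -0.01 to 0.46). Dusp1 did not pass, at an adjusted p of 0.511 in limma. Leaving out wild-type replicate 1 gave 0.14.

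Btg2 had the largest mean difference among the members and the widest spread. Probe set 1416250_at read 5.97, 7.64 and 6.99 on wild-type replicates 1, 4 and 5, and 7.59, 7.69 and 7.53 on knockout replicates 2, 4 and 5. Wild-type replicate 4 lay among the knockout arrays, wild-type replicate 1 far below, and the groups overlapped. Wild-type arrays averaged 6.86 ± 0.84 and knockout arrays 7.60 ± 0.08 (SD, n = 3 each), a difference of 0.74 (SE 0.41, 95% interval -0.26 to 1.74; limma's adjusted p = 0.524). Leaving out wild-type replicate 1 gave 0.29, and leaving out wild-type replicate 4 gave 1.12 (limma's adjusted p = 0.26). Probe set 1448272_at of the same gene read 6.53, 6.66 and 6.68 on the wild-type arrays and 6.47, 6.71 and 6.69 on the knockout arrays, in the same order. Its groups overlapped and the means were 6.62 in both genotypes, with a difference of 0.00 (95% interval -0.23 to 0.24). The wide spread of Btg2 was therefore seen at 1 of its 2 probe sets.

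Ier2 and Nr4a1 overlapped between the genotypes. Ier2 read 5.65, 5.89 and 5.96 on wild-type replicates 1, 4 and 5 and 5.71, 6.19 and 5.94 on knockout replicates 2, 4 and 5, a difference of 0.12 (95% interval -0.25 to 0.49; limma's adjusted p = 0.736). Its single high array was knockout replicate 4, without which the difference was 0.00. It was 0.03 without wild-type replicate 1 and 0.24 without knockout replicate 2. Nr4a1, a dim probe set, read 4.15, 4.08 and 4.30 on wild-type replicates 1, 4 and 5 and 4.08, 3.94 and 4.04 on knockout replicates 2, 4 and 5. It was the only readable member whose brightest probe set was lower in the knockout, by a log2 difference of -0.16 (95% interval -0.37 to 0.06; limma's adjusted p = 0.525), and -0.09 without wild-type replicate 5.

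**Figure D2:**
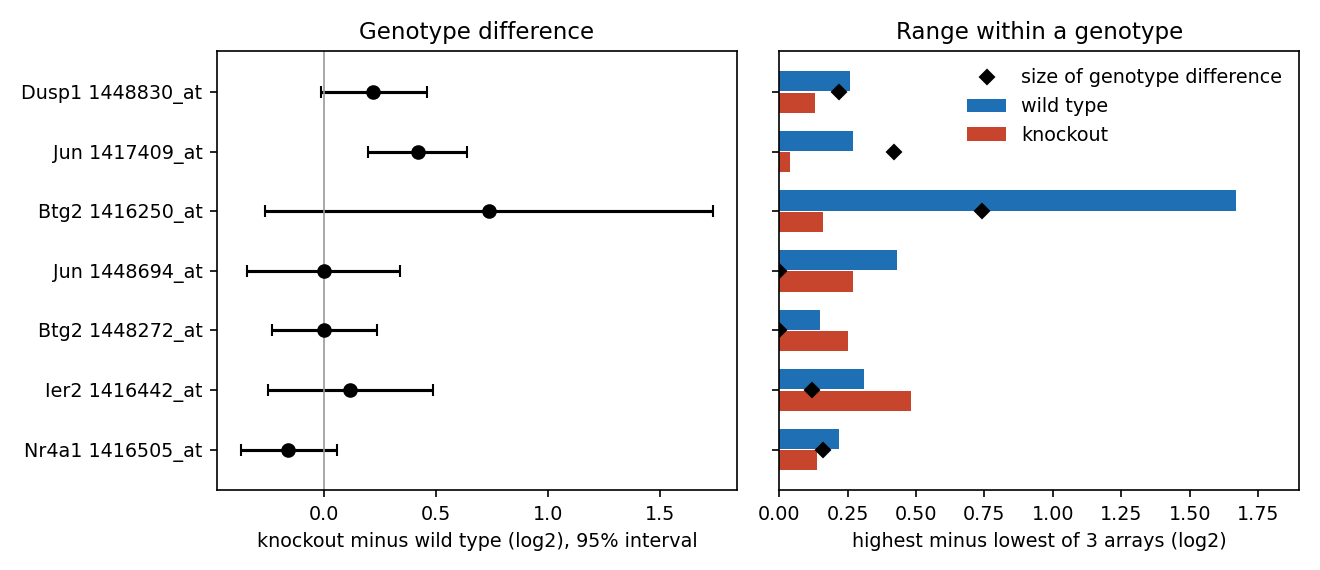
Left, log2 difference (knockout minus wild type) with its 95% interval from limma for the 7 kept probe sets; right, the highest minus the lowest of the 3 arrays of each genotype (bars) beside the size of the genotype difference (diamonds). The diamond lies beyond both bars only for Jun 1417409_at, at 0.42 against ranges of 0.27 and 0.04.

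The third question set variation between arrays of one genotype against the genotype difference. For 6 of the 7 probe sets (85.7%) the range among the 3 arrays of at least one genotype exceeded the difference between the genotype means, and the same held for 93.7% of all kept probe sets. The exception was Jun 1417409_at. The share of variance over the 6 arrays that lay between the genotypes was 87.4% for Jun 1417409_at, 59.3% for Dusp1, 50.5% for Nr4a1, 36.5% for Btg2 1416250_at and 11.0% for Ier2. It was 0.0% for the second probe sets of Jun and of Btg2. Over all kept probe sets the median share was 23.2%, with quartiles of 7.2% and 42.8%. For Jun 1417409_at the difference was 4.31 times the pooled within-genotype SD, for Dusp1 1.97, for Nr4a1 -1.65, for Btg2 1416250_at 1.24 and for Ier2 0.58 times, and for the second probe sets of Jun and Btg2 -0.01 and 0.02 times, where the median size over all kept probe sets was 0.90.

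Among probe sets of like brightness, 1 member probe set varied more between arrays of one genotype than nearly all others, and the other 6 lay in the middle or lower range. The pooled within-genotype SD was 0.60 for Btg2 1416250_at, above 98.7% of the 3657 kept probe sets whose mean was within 0.5 of its own. For the other 6 it ran from 0.09 to 0.20, at percentiles from 19.9 (Nr4a1) to 62.9 (Jun 1448694_at). Ier2 stood at the 55.0 percentile, Dusp1 at 39.2, Jun 1417409_at at 27.4 and Btg2 1448272_at at 22.4. The median over all kept probe sets was 0.16.

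**Figure D3:**
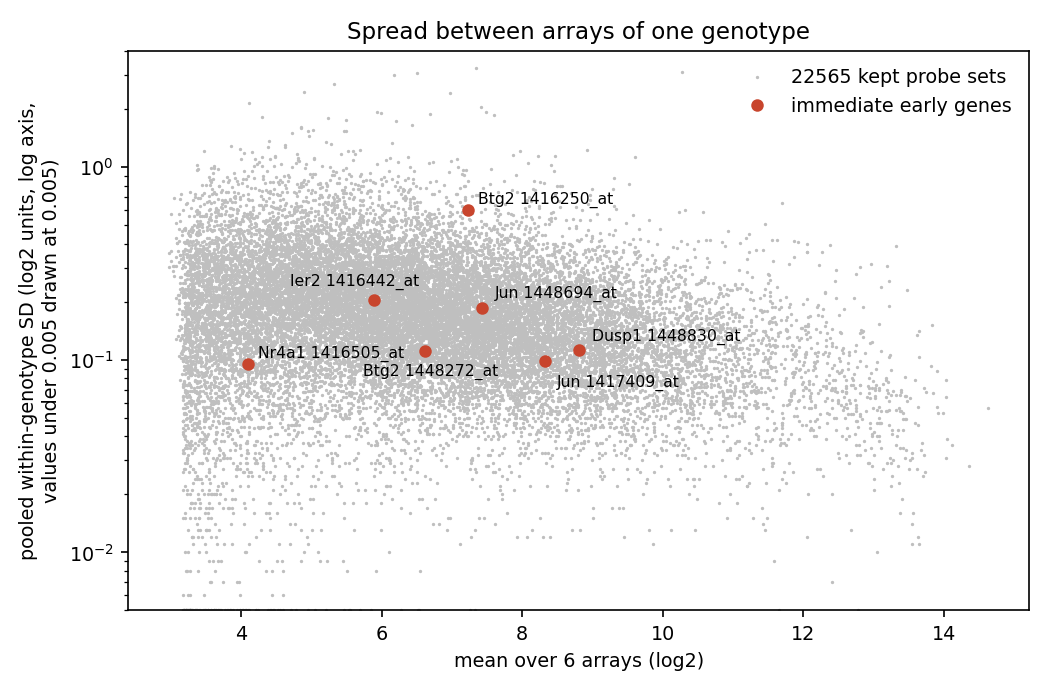
Pooled within-genotype SD (log axis, values under 0.005 drawn at 0.005) against mean log2 expression for 22565 kept probe sets in grey and the 7 member probe sets in red. Btg2 1416250_at, at 0.60, lies near the upper edge of the cloud, and the other 6 lie within it, from 0.09 to 0.20.

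Of the 5 readable genes, 4 had a probe set with its lowest value on wild-type replicate 1. Averaged over the 5 readable genes, the deviation from the mean of both genotypes was -0.41 on wild-type replicate 1, 0.06 on wild-type replicate 4 and -0.05 on wild-type replicate 5. On knockout replicates 2, 4 and 5 it was 0.10, 0.20 and 0.11. All knockout arrays were above all wild-type arrays, by a narrow margin between knockout replicate 2 and wild-type replicate 4, and the genotypes differed by 0.27 with SDs between arrays of 0.25 (wild type) and 0.06 (knockout). Without wild-type replicate 1 the difference was 0.13. Btg2 1416250_at carried much of this, at -1.27 on wild-type replicate 1, where the gene's other probe set stood at -0.10. With Btg2 left out, which was chosen once its values were known, the other 4 genes averaged -0.20 on wild-type replicate 1 and the genotypes differed by 0.15. With probe sets averaged per gene the difference was also 0.15, wild-type replicate 1 stood at -0.24 and the genotypes overlapped. Wild-type replicate 1 was the lowest array for 4 of the 7 probe sets (Jun 1417409_at, Dusp1, Btg2 1416250_at and Ier2) and the highest for 1. Knockout replicate 4 was the highest for 4, and for 19.7% of all kept probe sets. Wild-type replicate 1 was also the lowest array for 29.5% of all kept probe sets and the highest for 26.9%, so it stood apart in both directions over the whole table.

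Many genes outside the list ran with or against this course. Among 1346 other genes whose SD over the 6 arrays was at least 0.3, 127 had a Pearson r above 0.9 with the mean deviation of the members and 236 an r below -0.9 (over 6 arrays, given as a description). The 8 most alike were Slf2, Echs1, Exosc3, Fbxo3, Plekhf2, Oard1, Usp8 and Sinhcaf, with r from 0.990 to 0.995. Echs1, a mitochondrial enzyme of fatty acid oxidation, read 8.05, 8.74 and 8.50 on wild-type replicates 1, 4 and 5 and 8.73, 8.91 and 8.74 on knockout replicates 2, 4 and 5. Slf2 read 5.88 on wild-type replicate 1 and between 6.73 and 7.34 on the other arrays. Low values on wild-type replicate 1 are what the choice by r fixed, so they are no finding about these 8 genes.

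**Figure D4:**
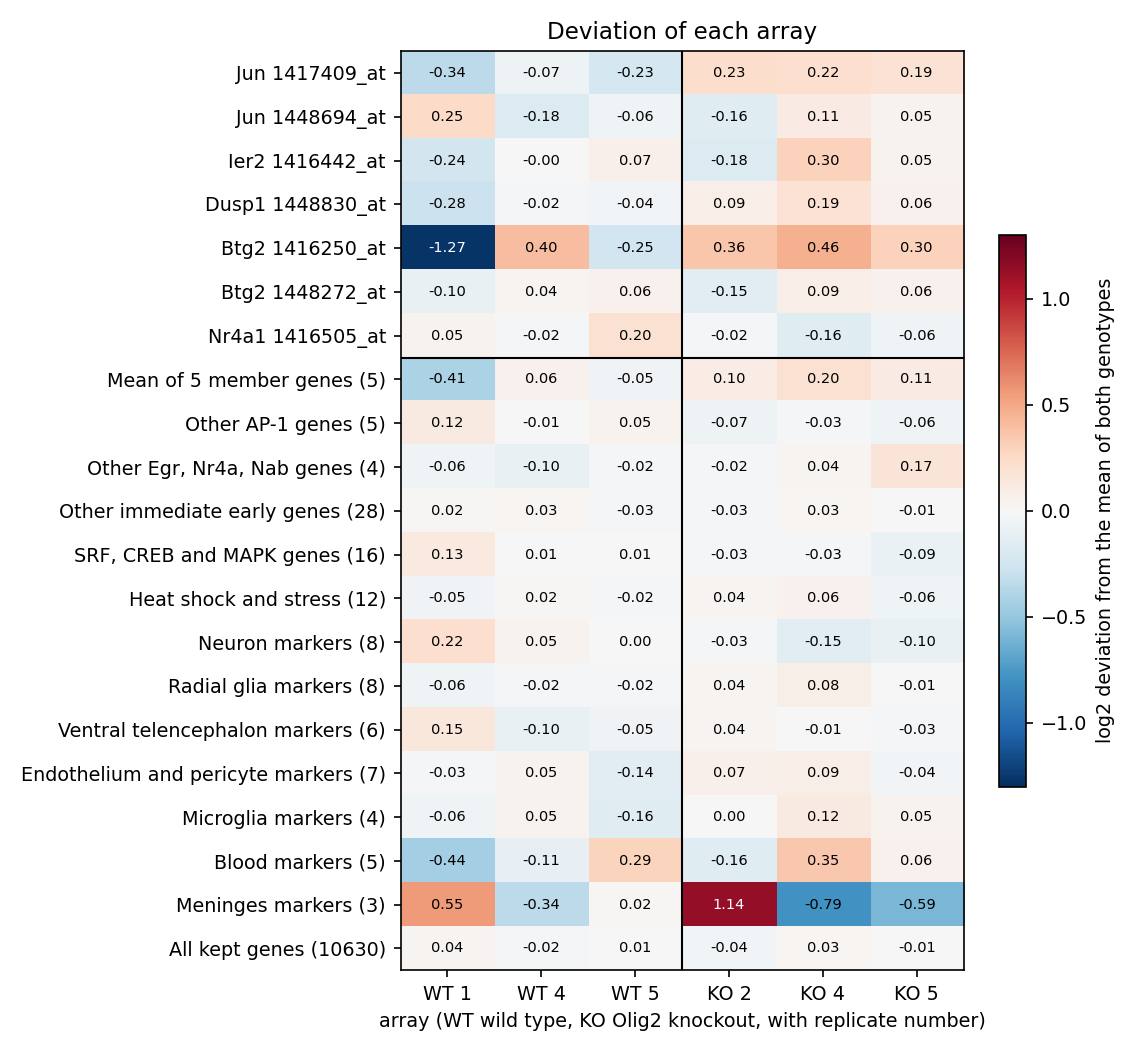
Log2 deviation of each array from the mean of both genotypes for the 7 member probe sets (above the line) and averaged over the kept genes of each list (below it, number of genes in brackets). The members' mean is -0.41 on wild-type replicate 1, where Btg2 1416250_at stands at -1.27 and the mean of other immediate early genes, which go both ways, at 0.02.

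Other immediate early genes went both ways on wild-type replicate 1. Of 39 other rapidly induced genes, 28 were kept, 13 higher and 15 lower in the knockout, with a median difference of -0.02. Without overlap, 1 of the 28 was higher and 1 lower, and over 10630 genes 898 were higher and 846 lower. On wild-type replicate 1, 5 of the 28 lay more than 0.2 below and 6 more than 0.2 above the mean of both genotypes, from -0.61 to 0.61, so that the mean over the list (0.02 there, between -0.03 and 0.03 on every array) hides genes that differ. Chosen after their values were seen, Plk2 read 7.90 on that array and 8.08 to 8.51 on the others, and Rhob 10.17 against 9.25 to 9.73. The 4 of lowest p were Ier5 (0.19), Nfkbia (0.25), the inhibitor of NF-kappaB, Zfp36l2 (-0.46), which binds AU-rich messenger RNA, and the kinase Sik1 (0.49), a CREB target. Ier5 read 8.17, 8.40 and 8.29 on the wild-type arrays and 8.47, 8.50 and 8.47 on the knockout arrays, with no overlap and limma's unadjusted p = 0.0555. Its other kept probe sets differed by -0.08 and 0.14, and those of Nfkbia by -0.41 to 0.07. The other gene of the list without overlap was Ier5l, which differed by -0.24, though its nearest arrays both read 4.82. The 11 that were not kept, among them Arc (2.28 on every array), Npas4, Ptgs2 and Zfp36, read between 2.27 and 3.27.

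Relatives of the members were mostly dim or overlapping. Of 9 other AP-1 and related bZIP genes, 5 were kept, 1 higher and 4 lower. Jdp2, a repressor that binds AP-1 sites, differed by -0.30, Mafg by -0.16, Mafk by -0.08 and Fosl2 by 0.06, all with overlap. The 4 not kept, Fosl1, Batf, Batf3 and Maff, read at most 2.68. Of 7 Egr, Nr4a and Nab genes, 4 were kept. Nr4a2, an orphan nuclear receptor of midbrain dopamine neurons, read 7.33, 7.28 and 7.44 on wild-type replicates 1, 4 and 5 and 7.51, 7.77 and 7.82 on knockout replicates 2, 4 and 5 without overlap, a difference of 0.35 (SE 0.11, limma's unadjusted p = 0.0158). Its other 3 kept probe sets differed by -0.39 to 0.05. Egr3, a dim probe set, differed by 0.32 with overlap. It read 4.77 on knockout replicate 5 and 3.86 to 4.11 on the other arrays. Nr4a3 differed by -0.15 with overlap, and Egr2, Egr4 and Nab2 were not kept. None of these genes passed the adjusted threshold.

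Genes that act on these promoters were more often lower than higher in the knockout, many by little, without passing. Of 16 kept genes for SRF, CREB and MAPK signalling, 5 were higher and 11 lower, with a median of -0.06. Over 10630 genes 5371 were lower. Lower without overlap were 3 of the 16 and 846 of the 10630. The list's mean deviation was 0.13 on wild-type replicate 1, 0.01 on wild-type replicates 4 and 5, and -0.09 to -0.03 on knockout arrays. Creb1 differed by -0.01, and its other probe sets by -0.07 to 0.85. Map2k2, the kinase above ERK, differed by -0.42 (SE 0.16, limma's unadjusted p = 0.0401) without overlap, and -0.15 at its second probe set. Mkl1, a coactivator of serum response factor, differed by -0.49, also without overlap, and read 6.98 on wild-type replicate 1 against 5.78 to 6.13 on the other arrays. Mapk14 was the third without overlap, at -0.17, and its other probe sets differed by -0.14 to 0.40. Crtc1, a coactivator of CREB, differed by -0.39 with overlap, Mapk8 by -0.18 and Rps6ka5 by 0.19. Of 12 kept heat shock and unfolded protein genes, 7 were higher and 5 lower, with differences from -0.08 to 0.14 at their brightest probe sets. Hspa8 (0.06), Hsph1 (0.11), Ddit3 (0.14) and Atf4 (0.09) had the lowest p, with 0.38 for Hsph1 and 0.33 for Atf4 at a second probe set and 0.01 to 0.64 at the other 3 of Hspa8. Hspa1a, an inducible heat shock gene, was not kept and read between 2.50 and 2.72.

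Markers of the cells in each pool differed between arrays. On wild-type replicate 1, where Jun 1417409_at, Dusp1 and Btg2 1416250_at were lowest, 8 neuron markers averaged 0.22 above the mean of both genotypes, 5 blood markers -0.44 and 3 meninges markers 0.55. The neuron markers did not run together on that array. Mapt (12.91) and Ina (11.90) stood furthest above the mean of both genotypes. Gap43, Snap25 and Stmn2 lay above it by less, and Tubb3, Dcx and Map2 lay below it. Of the neuron markers 7 of 8 were lower in the knockout, and their mean level was 11.24 to 11.46 on wild-type arrays and 11.09 to 11.21 on knockout arrays. Ina differed by -0.60 and Mapt by -0.56, both without overlap. Their other probe sets differed by -0.56 to -0.38 (Ina) and -0.25 to 0.02 (Mapt). The rest differed little: Gap43 by -0.12, Map2 and Snap25 by -0.08, Tubb3 and Dcx by -0.02, and Stmn2 by 0.02. Other probe sets of Dcx differed by -0.07 to 0.62 and of Map2 by 0.05 to 0.38. Radial glia markers had 5 of 8 higher, at 9.63 to 9.67 and 9.69 to 9.77, with Hes1 0.40 higher without overlap and Nes at -0.18. The other probe sets of Nes differed by -0.47 and -0.45. Vim differed by 0.18 without overlap, and by -0.10 to 0.00 at its other probe sets. Hes5 differed by 0.12, and by -0.18 at its second probe set. Blood markers were 5 of 5 higher, all with overlap, at 8.01 to 8.74 and 8.28 to 8.79, and Epb42 lay at 2.29 to 2.37. Their differences ran from 0.03 (Hbb-y) to 0.36 (Hbb-bh1), and the second probe set of Slc4a1 differed by -0.15. Meninges markers ranged most, from 5.20 to 6.08 and from 4.75 to 6.68, with knockout replicate 2 at 1.14. Of 9, 6 were not kept, which left Col3a1, Foxd1 and Pdgfra, and these did not run together. On wild-type replicate 1 Col3a1 (6.20) and Pdgfra (6.24) lay above both genotype means and Foxd1 (5.81) below both. On knockout replicate 2 Col3a1 read 8.10, against 4.04 to 6.20 elsewhere. Pdgfra differed by -1.04, Col3a1 by 0.33 and Foxd1 by 0.24, all with overlap. Endothelial and pericyte markers were 4 of 7 higher, at 5.37 to 5.56 and 5.48 to 5.61. Higher without overlap were 2 of the 7, and 898 of 10630 genes over the whole table. Pdgfrb differed by 0.41 (limma's unadjusted p = 0.00348, adjusted p = 0.511) and by -0.15 at its second probe set. Pecam1, a dim probe set, differed by 0.39 and read 3.38 on wild-type replicate 1, against 4.16 to 4.32 elsewhere. Flt1 (-0.29), Kdr (-0.15) and Cldn5 (-0.02) were lower, with overlap. Microglia markers were 2 of 4 higher, at 4.08 to 4.29 and 4.24 to 4.36, and Aif1, C1qa, C1qc and Ptprc read at most 2.94. The part of cell composition in the values of the members was not tested. In pooled bulk RNA, fewer cells of a type and less transcript per cell cannot be told apart.

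Over the whole series, Olig2 itself read 8.20 to 8.42 on wild-type arrays and 7.48 to 7.76 on knockout arrays without overlap. The sources used here do not place its probe set relative to the deletion, so this reading does not test the labels. Of 9 ventral telencephalon markers 7 had a probe set annotated with 1 gene symbol, and 6 of these were kept, with Dlx1 between 11.03 and 11.47. Lhx8 (9.91 to 10.25) and Lhx6 (8.22 to 9.10), genes of the medial ganglionic eminence, were bright, whereas Nkx2-1, which defines that region, read 2.69 to 3.36 and was not kept. Gsx2 differed by 0.54 (limma's unadjusted p = 0.00448, adjusted p = 0.511) and Lhx6 by -0.33, both without overlap, and the second probe set of Lhx6 by 0.02. The 3′ minus 5′ control signal of Gapdh, a sign of RNA quality, separated the genotypes: it was -0.41, -0.53 and -0.50 on wild-type replicates 1, 4 and 5 and -0.59, -0.59 and -0.65 on knockout replicates 2, 4 and 5. Wild-type replicate 1 was its extreme, as it was for the members' mean. That of Actb overlapped, at 0.69 to 0.90. The 18S ribosomal controls read 4.87 on wild-type replicate 1, the lowest array, and 5.38 to 7.57 on the others. The part of these controls in the members' values was not tested.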

How the data were processed

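Per the labels and the design text, biotin-labelled RNA of pooled ventral telencephalon was hybridised to Affymetrix Mouse MOE430 2.0 arrays. The log2 values were deposited by the authors, who used GCOS, MAS5 and GCRMA (quantile normalization, summarisation) per the submitters' processing notes; the sources used here state no versions. Of 45101 probe sets, 64 AFFX controls were set aside.

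Probe sets were named from the platform annotation. Probe sets brighter than the median of their array on 3 or more of the 6 arrays, both genotypes counted alike, were kept (22565, 10630 named genes). Genotypes were compared with limma 3.58.1 in R 4.3.3 (lmFit, eBayes, two-sided, Benjamini-Hochberg over all kept probe sets, threshold 0.05), without a block. The code was tested on simulated data. A gene's brightest kept probe set stands for it in lists. All member probe sets, up to 4 genes of lowest p per list, and 8 genes of most similar course were named; further names were chosen after their values were seen. Members and the 12 other lists were chosen with earlier results of these data known. P-values measure the spread between these pooled samples, whose number limits precision, and whether pools came from separate litters is not stated. Alternatives were other filters, normalizations, variance models and weights, replicate number as a block, averaged probe sets per gene, and arrays left out.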

Additional observations from a re-analysis of the deposited data

How the results depend on the processing

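No member and no probe set passed limma's adjusted threshold under any of the 14 refits (0 in each), and the members' mean difference of 0.27 stayed above 0 in all 13 alternatives run, from 0.13 (no filter, 10 genes; also without wild-type replicate 1) to 0.39. With single arrays left out it ranged from 0.13 to 0.37, and both counts ranged from 0 to 0. It was 0.15 when probe sets were averaged per gene and 0.15 with Btg2 left out. The number of probe sets at unadjusted p below 0.05 was 2121 in the main setting and from 1121 (without knockout replicate 5) to 3491 (array weights). Replicate numbers as a block leave wild-type replicate 1 and knockout replicate 2 without a same-numbered partner. Genotype differences in that fit therefore rest on replicates 4 and 5 alone. There 0 probe sets passed and 2014 had unadjusted p below 0.05. Jun 1417409_at differed by 0.35 (limma's adjusted p = 0.532), Dusp1 by 0.15 and Btg2 1416250_at by 0.30. Deviations of same-numbered arrays correlated at -0.29 (replicate 4) and 0.32 (replicate 5), and those of differently numbered arrays at -0.36 to 0.38. Because the deviations of a genotype's arrays offset each other, these values do not decide whether the numbers mark pairs. The main setting did not take them as pairs. With array weights Nr4a1 also had an unadjusted p below 0.05 (difference -0.22, limma's adjusted p = 0.307). The GCRMA floor limits what can be said of Fos, Fosb, Junb, Egr1 and Atf3.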
